A study of Homo sapiens with 27 samples.

Results

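A set of 10 genes that encode feedback brakes on mitogen-activated protein kinase (MAPK) signalling were followed in U937 cells treated with matrine. They were taken by name: the dual-specificity phosphatases DUSP1, DUSP2, DUSP4, DUSP5, DUSP6 and DUSP10, the Sprouty genes SPRY2 and SPRY4, and the Sprouty-related genes SPRED1 and SPRED2. The choice was made with earlier results of these data known. All 10 were matched to an identifier in the table of 57905 genes. U937 is a human line of myeloid leukemia cells, and matrine is an alkaloid of the herb Sophora flavescens. Control U937 cells were set beside cells exposed to matrine at 0.8 mg/ml, either for 30 min or for 24 h, with 3 RNA-seq libraries in each of the 3 groups. The study's vehicle for matrine was water, and how long the control cells were cultured is not stated. The same 3 control libraries served both time points.

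The MAPK cascades pass a signal from RAS through RAF and MEK to the kinase ERK, while parallel branches end in the kinases p38 and JNK. Dual-specificity phosphatases of the MAPK type take the activating phosphates off these kinases, and Sprouty and SPRED proteins act further upstream, between receptors, RAS and RAF. Many of these genes are themselves switched on by the pathway they restrain, so their mRNA levels are often read together with ERK output, and several of their mRNAs are short-lived.

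Library totals lay between 17314931 and 21930018 counts. Of 12 markers of myelomonocytic cells, 11 had a mean above 1 FPKM (fragments scaled for gene length and library depth), the exception being MPO. Their summed level was 1679 to 1870 FPKM in the control, 1757 to 1829 FPKM at 30 min and 2414 to 2542 FPKM at 24 h, a difference that lay beside every 24 h result below and whose part in them was not tested. The members of that list differed: from control to 24 h the mean of ELANE went from 885 to 1378 FPKM and that of ITGB2 from 114 to 223 FPKM, but that of LYZ from 292 to 244 FPKM and that of SPI1 from 67.6 to 56.0 FPKM. A mean above 1 FPKM was reached by 0 of 4 T cell, 0 of 4 fibroblast and 0 of 4 epithelial markers, with CD3D, CD3E, CD3G, DCN, EPCAM and KRT5 at 0 in all 9 libraries. Among 4 B cell markers, 3 had a mean above 1 FPKM, with a summed level of at most 5.41 FPKM in any library, while MS4A1 was at 0. As bulk samples, these libraries cannot tell fewer cells with a transcript from less transcript per cell.

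In control cells the feedback genes differed widely in level. SPRY2 was the highest at 23.2 ± 0.932 FPKM (SD, n = 3), followed by DUSP6 at 16.8 ± 0.393 FPKM (SD, n = 3), DUSP2 at 14.7 ± 1.45 FPKM (SD, n = 3), SPRED2 at 9.18 ± 0.491 FPKM (SD, n = 3) and DUSP5 at 6.87 ± 0.533 FPKM (SD, n = 3). DUSP4 at 2.08 ± 0.205 FPKM (SD, n = 3) and DUSP1 at 1.68 ± 0.0987 FPKM (SD, n = 3) were low. DUSP10 and SPRY4 were lower still, with means of 0.827 and 0.320 FPKM, and SPRED1 had no read. Ranges over the 3 control libraries did not overlap between any neighbours in this order. After 30 min the order was SPRY2, DUSP2, SPRED2, DUSP5 and DUSP6, of which all but SPRY2 overlapped in a chain. After 24 h DUSP6 and SPRY2 led with overlapping ranges, SPRED2 and DUSP5 followed with overlapping ranges, and DUSP2 had dropped below them to 4.01 ± 0.405 FPKM (SD, n = 3).

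**Figure D1:**
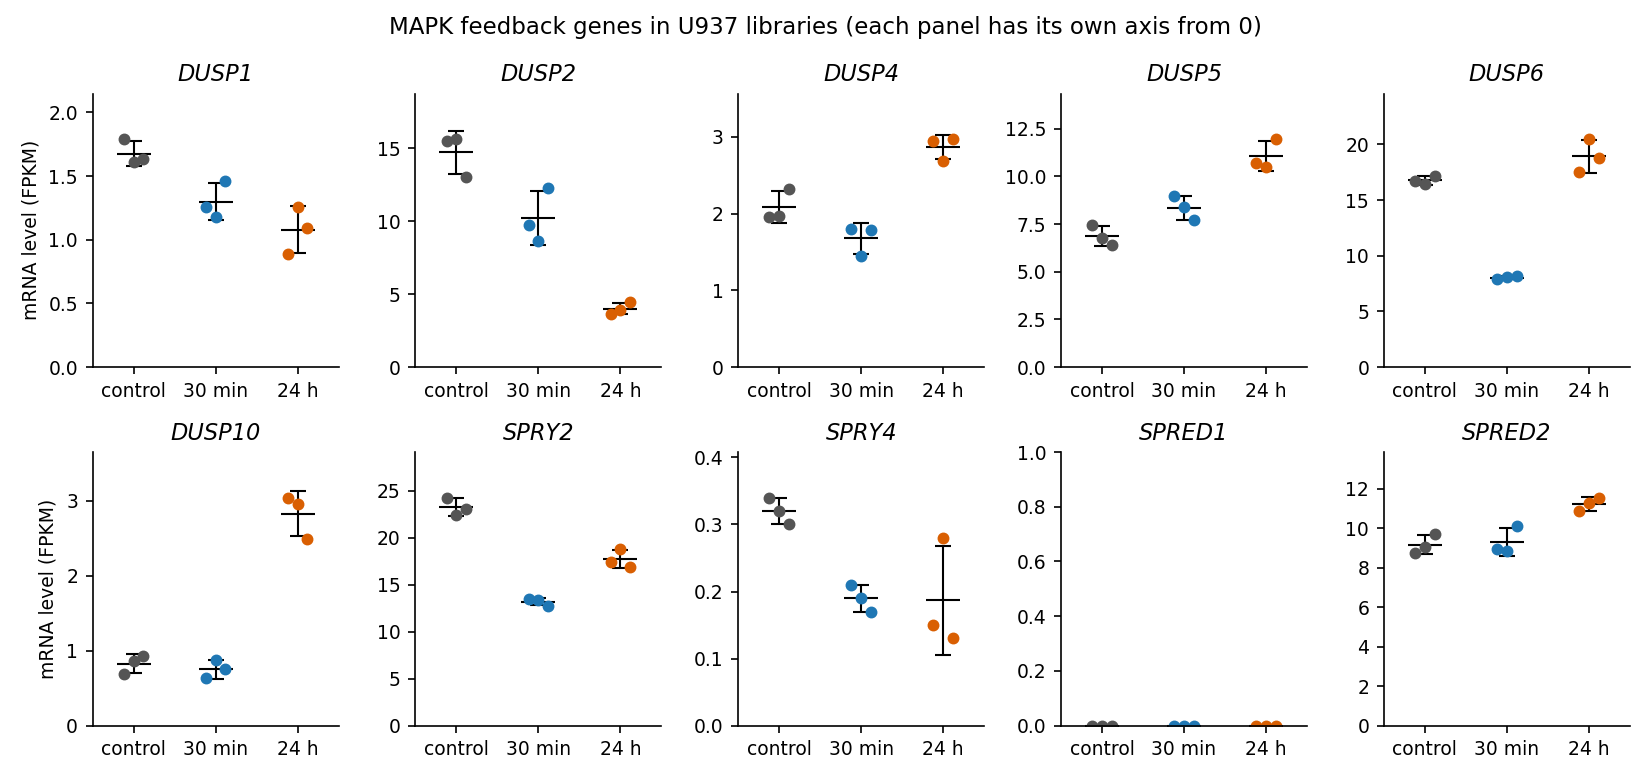
mRNA level in FPKM of each of the 10 feedback genes in every U937 library, with 1 point per library, a bar at the mean and whiskers of 1 SD (n = 3). DUSP6 and SPRY2 were lowest at 30 min, DUSP2 was lowest at 24 h, DUSP10 stood at 2.49 FPKM or more at 24 h and at most at 0.93 FPKM in the other libraries, and SPRED1 was at 0 throughout.

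Matrine treatment for 30 min was compared with control to see which of these genes responded fast. DUSP6 and SPRY2 fell, 2.07-fold and 1.75-fold, and none of the 7 genes tested was called higher. The 7 genes whose mean exceeded 1 FPKM in the 6 libraries compared were tested, by the quasi-likelihood method of edgeR, with p-values adjusted (Benjamini-Hochberg) over all 11587 genes tested. A call required an adjusted p under 0.05 together with a 1.5-fold or larger change. Of the 7, 2 were called lower and 0 higher, where 0.544% of all genes were called lower and 0.0949% higher. By an unadjusted edgeR p under 0.05 alone 4 were lower and 1, DUSP5, was higher, and both DESeq2 and limma also called 2 lower and 0 higher.

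DUSP6, a cytoplasmic phosphatase that acts chiefly on ERK, lies on chromosome 12 of GRCh38 (89347235 to 89352501, minus strand). Its level was 16.69, 16.44 and 17.21 FPKM in control replicates 1, 2 and 3, against 7.91, 8.07 and 8.17 FPKM after 30 min. Every treated library was below every control library, and the treated libraries varied little, with a mean of 8.05 ± 0.131 FPKM (SD, n = 3). The log2 fold change was -1.05 (SE 0.0685, edgeR adjusted p = 2.6e-09), which put DUSP6 9th by adjusted p and 65th from the lowest by fold change among the genes tested. The values rested on 768 to 1608 reads per library of these 2 groups. An annotated transcript of the opposite strand, ENSG00000274021, overlaps exons of DUSP6, and the strand setting of the counting is not stated, so reads of the pair cannot be told apart.

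SPRY2 encodes an inhibitor of receptor signalling to RAS and lies on chromosome 13 (80335976 to 80341126, minus strand). It measured 24.25, 22.43 and 22.99 FPKM in the control replicates and 13.45, 13.33 and 12.74 FPKM after 30 min. The groups did not overlap. The log2 fold change was -0.81 (SE 0.0666, edgeR adjusted p = 8.1e-08), which was 19th by adjusted p and 93rd from the lowest by fold change.

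None of the nuclear phosphatases, which are typical immediate early genes, was called at this time. DUSP2 (chromosome 2, 96143169 to 96145440, minus strand) measured 15.48, 15.61 and 13.03 FPKM in the control and 9.72, 8.64 and 12.28 FPKM at 30 min. Its treated libraries lay below its controls but spread more widely than those of DUSP6. The log2 fold change of -0.52 (SE 0.116, edgeR adjusted p = 0.022) was under the fold change threshold, and its result depended on single libraries. DUSP2 was called lower when control replicate 3 (log2 fold change -0.60, edgeR adjusted p = 0.013) or 30 min replicate 3 (-0.66, edgeR adjusted p = 0.0030) was left out. Without control replicate 1 or 2 the edgeR adjusted p was 0.15 or 0.062, and without 30 min replicate 1 or 2 it was 0.12 or 0.095. With all libraries limma gave an adjusted p of 0.099 on log2(FPKM + 0.1) and 0.092 on log2(FPKM + 1). DESeq2 gave 0.0076, and edgeR gave 0.012 with no filter on level and 0.025 with a replicate block. All of these fits with all libraries left DUSP2 under the fold change threshold.

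DUSP1, the best known of the stress-inducible MAPK phosphatases (chromosome 5, 172768096 to 172771195, minus strand), was at 1.79, 1.61 and 1.63 FPKM in the control and 1.26, 1.18 and 1.46 FPKM at 30 min. These levels stood on only 49 to 75 reads per library, and the log2 fold change of -0.36 (SE 0.192, edgeR adjusted p = 0.53) did not pass the test. DUSP4 (chromosome 8, 29333064 to 29350684, minus strand), a nuclear relative of DUSP1, was at 1.96, 1.97 and 2.32 FPKM against 1.80, 1.45 and 1.78 FPKM, a log2 fold change of -0.30 (edgeR adjusted p = 0.24). DUSP5, a nuclear phosphatase selective for ERK (chromosome 10, 110497907 to 110511533, plus strand), was the one tested member with every treated library above every control, at 7.45, 6.77 and 6.40 FPKM against 8.96, 8.37 and 7.72 FPKM. Its log2 fold change was 0.29 (SE 0.0963, edgeR adjusted p = 0.16). SPRED2, which restrains the activation of RAF by RAS (chromosome 2, 65310851 to 65432637, minus strand), measured 8.76, 9.06 and 9.72 FPKM in the control and 8.96, 8.86 and 10.12 FPKM at 30 min. The groups overlapped, with a log2 fold change of 0.03 (SE 0.0724, edgeR adjusted p = 0.92). Non-overlapping FPKM ranges, treated under control, were seen for 5 of the 7 tested members against 8.91% of all genes, and the opposite for 1 against 4.89%. At an adjusted p under 0.05 with no limit on fold change, 3 members (DUSP2, DUSP6 and SPRY2) were lower, against 1.33% of all genes.

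**Figure D2:**
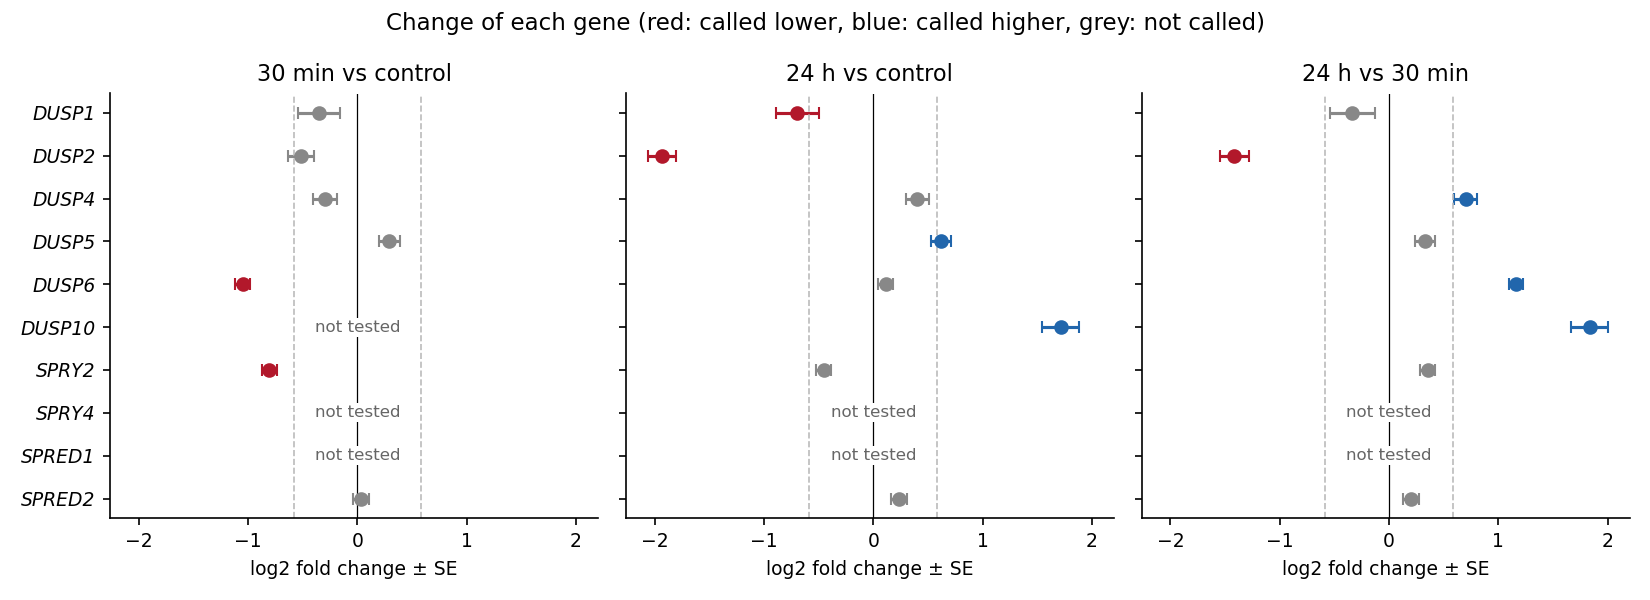
Log2 fold change of each feedback gene with its standard error in the 3 comparisons of U937 groups, where dashed lines mark a fold change of 1.5 in either direction. DUSP6 and SPRY2 lie beyond the lower line at 30 min, DUSP2 and DUSP1 at 24 h, and DUSP5 and DUSP10 lie beyond the upper line at 24 h.

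After 24 h of matrine the picture differed from gene to gene. Against control, DUSP2 fell 3.82-fold and DUSP1 1.62-fold, while DUSP10 rose 3.28-fold and DUSP5 1.54-fold. DUSP6 stood 1.08-fold above control and was not called, and SPRY2 lay between its 30 min and control levels. Of 8 members tested, 2 were called lower and 2 higher, with a background of 11.6% of 12035 genes called lower and 14.7% called higher, so that calls were common among all genes at this time.

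DUSP2, which inactivates ERK and p38 in the nucleus of blood cells, measured 3.65, 3.94 and 4.45 FPKM at 24 h. All 3 libraries were far below the lowest control of 13.03 FPKM and below the lowest 30 min library of 8.64 FPKM. The log2 fold change against control was -1.93 (SE 0.128, edgeR adjusted p = 5.9e-11), the 27th lowest of all genes tested. DUSP1 was at 0.89, 1.26 and 1.09 FPKM on 37 to 52 reads per library, with a log2 fold change of -0.69 (SE 0.200, edgeR adjusted p = 0.0049). Its groups did not overlap, but without 24 h replicate 1 the change was -0.57 (edgeR adjusted p = 0.031), under the fold change threshold.

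DUSP10, a phosphatase that prefers p38 and JNK over ERK (chromosome 1, 221701424 to 221742089, minus strand), measured 0.69, 0.86 and 0.93 FPKM in the control, 0.63, 0.88 and 0.75 FPKM at 30 min and 3.04, 2.95 and 2.49 FPKM at 24 h. The first 2 groups overlapped, and the 24 h libraries stood apart from both. Reads numbered 48 to 63 per library before 24 h and 189 to 217 at 24 h. The log2 fold change of 24 h against control was 1.71 (SE 0.166, edgeR adjusted p = 1.7e-08), above that of 98.1% of genes tested. DUSP10 passed the filter on level only through its 24 h libraries. Without that filter its log2 fold change was 1.68 (SE 0.165, edgeR adjusted p = 9.2e-11 over the genes with at least 10 counts) and -0.10 at 30 min (SE 0.193, edgeR adjusted p = 0.92).

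The level of DUSP5 was 10.68, 10.50 and 11.95 FPKM at 24 h, above every control and every 30 min library, with a log2 fold change against control of 0.62 (SE 0.0946, edgeR adjusted p = 8.6e-06). That is close to the fold change threshold, and without control replicate 3 or 24 h replicate 3 it was 0.57 or 0.56 and no longer called. For DUSP4 the 24 h values were 2.94, 2.69 and 2.97 FPKM, all above the controls, with a log2 fold change of 0.40 (SE 0.105, edgeR adjusted p = 0.0023), under the fold change threshold. SPRED2 was at 10.87, 11.29 and 11.56 FPKM, also above all controls, by 0.23 on the log2 scale (SE 0.0719, edgeR adjusted p = 0.0080). Without control replicate 1 its log2 fold change was 0.19 (edgeR adjusted p = 0.053). DUSP6 measured 17.55, 20.48 and 18.76 FPKM, with a log2 fold change of 0.11 (SE 0.0657, edgeR adjusted p = 0.14) although each library was above each control. That adjusted p depended on the setting. It was 0.025 by edgeR with library totals and 0.013 by edgeR with a mean FPKM above 5. By limma on log2(FPKM + 0.1) it was 0.032, and by DESeq2 0.14. The log2 fold change of DUSP6 was at most 0.19 under any setting. SPRY2 measured 17.42, 18.77 and 16.92 FPKM, below each control, with a log2 fold change of -0.45 (SE 0.0658, edgeR adjusted p = 4.6e-06) that was under the fold change threshold. The 24 h libraries lay wholly above the controls for 5 members and wholly below them for 3, as they did for 38.7% and 31% of all genes tested. At an adjusted p under 0.05 with no limit on fold change, 3 members were lower and 4 higher, against 32.7% and 30.6% of all genes.

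**Figure D3:**
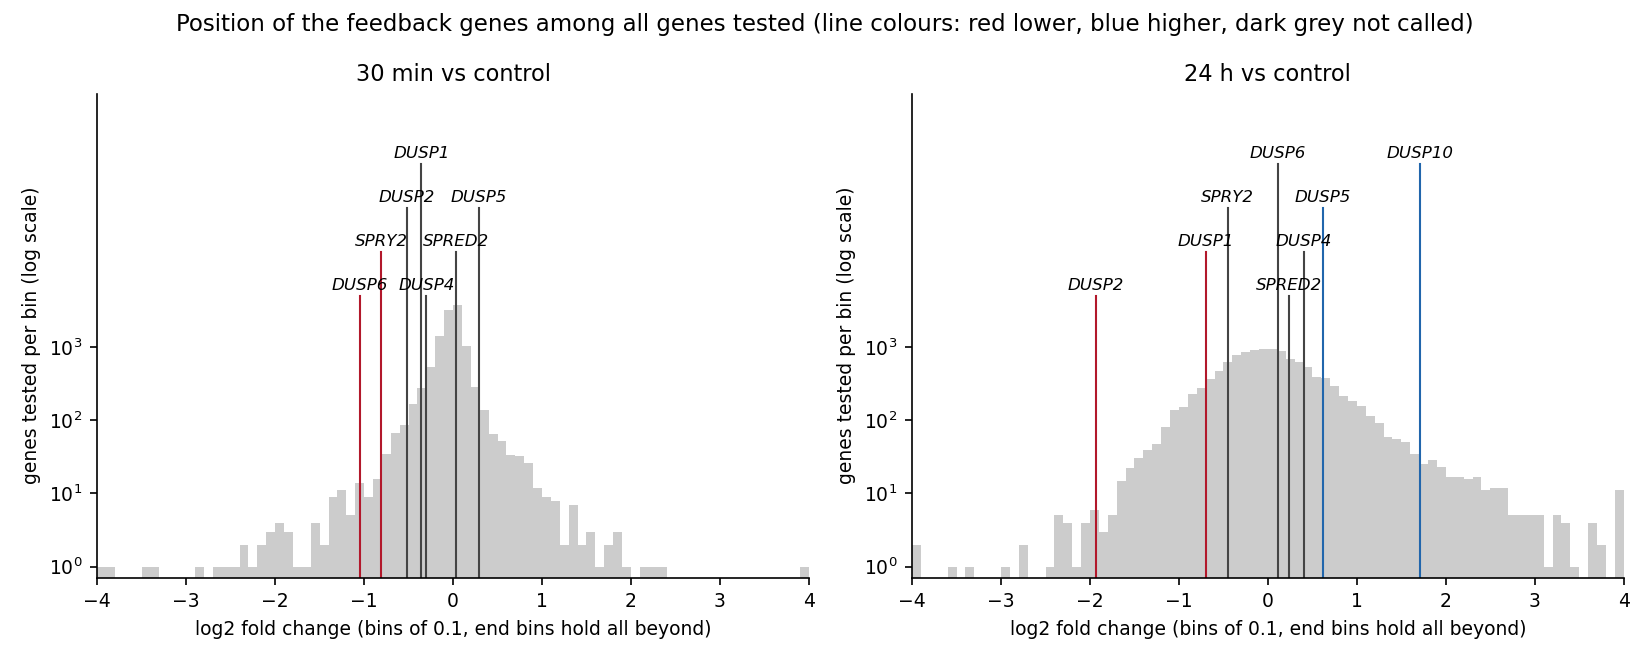
Log2 fold changes of all genes tested, as the number of genes per bin of 0.1 on a log axis, for 30 min and 24 h of matrine against control, with a line at each feedback gene tested. DUSP6 and SPRY2 sit in the lower tail of the narrow 30 min distribution, and DUSP2 and DUSP10 in opposite tails of the wider 24 h distribution.

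The direct comparison of 24 h with 30 min tested whether a gene's change differed between the times. DUSP6 rose 2.24-fold (log2 1.16, SE 0.0684, edgeR adjusted p = 1.1e-11), DUSP10 rose 3.57-fold (log2 1.84, SE 0.165, edgeR adjusted p = 5.6e-09) and DUSP4 rose 1.63-fold (log2 0.70, SE 0.106, edgeR adjusted p = 7.7e-06), a call that limma on log2(FPKM + 1) did not make (0.53). DUSP2 fell another 2.67-fold (log2 -1.42, SE 0.130, edgeR adjusted p = 7.7e-09). For SPRY2 the log2 difference was 0.35 (SE 0.0673, edgeR adjusted p = 0.00011), with every 24 h library above every 30 min library but a fold change of 1.28. DUSP5 at 0.33 (edgeR adjusted p = 0.0038), SPRED2 at 0.20 (edgeR adjusted p = 0.019) and DUSP1 at -0.34 (edgeR adjusted p = 0.16) were also under the threshold. Here 3 of 8 members were called higher and 1 lower, against 15.7% and 11.3% of the 11981 genes tested. DUSP10 passed the filter on level here only through its 24 h libraries. Its log2 difference without the filter was 1.785 (SE 0.165, edgeR adjusted p = 2.1e-11). With no limit on fold change 6 were higher and 1 lower, against 33.2% and 32.1%, and FPKM ranges did not overlap for 6 higher and 1 lower, against 39.9% and 28.6%. The 3 comparisons share libraries in pairs and are not independent of each other.

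Both genes that fell at 30 min are given here with their promoters, together with the gene with the largest rise at 24 h. The 250 bases before the annotated start (RefSeq, GRCh38.p14, minus strand, written 5′ to 3′) come from chr12:89352502-89352751 for DUSP6, chr13:80341127-80341376 for SPRY2 and chr1:221742090-221742339 for DUSP10. Capitals mark the letters TGACG, the core of the cAMP response element, searched on both strands. They occur in the SPRY2 stretch and in neither of the others.
DUSP6: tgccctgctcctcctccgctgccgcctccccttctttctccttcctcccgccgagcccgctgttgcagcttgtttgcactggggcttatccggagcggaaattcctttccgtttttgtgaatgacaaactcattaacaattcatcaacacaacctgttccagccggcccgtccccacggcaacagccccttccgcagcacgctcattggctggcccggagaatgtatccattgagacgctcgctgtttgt
SPRY2: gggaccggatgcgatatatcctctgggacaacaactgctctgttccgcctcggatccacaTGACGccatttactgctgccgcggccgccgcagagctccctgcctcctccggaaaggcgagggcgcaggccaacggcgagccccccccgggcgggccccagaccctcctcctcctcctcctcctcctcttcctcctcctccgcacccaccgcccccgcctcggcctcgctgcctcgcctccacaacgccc
DUSP10: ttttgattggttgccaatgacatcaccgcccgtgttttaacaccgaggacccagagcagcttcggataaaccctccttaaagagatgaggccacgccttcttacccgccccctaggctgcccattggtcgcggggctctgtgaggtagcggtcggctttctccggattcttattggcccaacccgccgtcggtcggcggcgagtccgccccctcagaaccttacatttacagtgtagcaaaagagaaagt

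The SPRY2 stretch was the richest of these in G and C, at 70.4%, against 57.2% for DUSP6 and 56.4% for DUSP10. RefSeq windows from 250 bases before to 50 after a start were at hand for 8 of the 10 members, 12 windows in all. DUSP4 and DUSP5 had none. The letters TGACG were found in 5 of the 12, of the genes DUSP1, DUSP10 (at another of its starts than the one printed), SPRED2, SPRY2 and SPRY4, and in 24.6% of all 35116 windows. The DUSP1 window held 4 matches, all upstream of its start. The E-box CACGTG, the letters that MYC binds with MAX, was in 2 windows, those of DUSP1 and DUSP2, and in 7.26% of all windows. The AP-1 letters TGANTCA were in 1 window, of SPRED2, and in 7.71% of all windows. The CArG box of the serum response factor was in 0 of the 12 and in 1.29% of all windows. SPRY2 held TGACG at the start printed and not at its other starts, and the DUSP6 window held none of these letters. Whether any of these letters bears on a change in level was not tested.

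SPRY4 and SPRED1 were under the filter on level in every comparison. SPRY4 (chromosome 5, 142310427 to 142326455, minus strand), a Sprouty gene often used as a readout of ERK, had 42, 37 and 31 reads in the control, 27, 23 and 20 at 30 min and 18, 34 and 17 at 24 h. The FPKM values of the treated libraries were below the 3 controls at both times, at 0.30 to 0.34 in the control, 0.17 to 0.21 at 30 min and 0.13 to 0.28 at 24 h. In the fit without a filter on level the log2 fold change was -0.74 at 30 min (SE 0.297, edgeR adjusted p = 0.35) and -0.88 at 24 h (SE 0.297, edgeR adjusted p = 0.015), the latter past both thresholds. SPRED1 (chromosome 15, 38252836 to 38357249, plus strand), the gene whose loss causes Legius syndrome, had 0 reads in each of the 9 libraries. A count of 0 allows up to 3 reads, or 0.137 to 0.173 CPM (counts scaled to library depth) depending on the library, and such limits cover counting error only. Its relative SPRED2 had 867 to 1302 reads per library.

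The relatives outside the 10 genes were followed through a list of 7, of which 2 passed the filter on level. DUSP7, the closest relative of DUSP6, had a log2 fold change of 0.05 at 30 min (edgeR adjusted p = 0.84) and -0.42 at 24 h (edgeR adjusted p = 4.7e-06), under the fold change threshold. DUSP16, a JNK phosphatase of the same class as DUSP10, had -0.01 at 30 min (edgeR adjusted p = 0.98) and -0.51 at 24 h (edgeR adjusted p = 0.00066), also under it and opposite in sign to DUSP10. SPRY1, read without the filter because its mean was under 1 FPKM, had 52, 67 and 42 reads in the control, 22, 21 and 16 at 30 min and 16, 23 and 25 at 24 h. Its log2 fold change was -1.54 at both times (SE 0.276 and edgeR adjusted p = 0.00075 at 30 min, SE 0.272 and edgeR adjusted p = 1.1e-05 at 24 h). In the same fit SPRY3 and SPRED3, also under 1 FPKM, had positive log2 fold changes at 24 h, 0.90 (SE 0.309, edgeR adjusted p = 0.017) and 0.98 (SE 0.400, edgeR adjusted p = 0.046), on 17 to 56 and 8 to 59 reads in the control and 24 h libraries, whose FPKM ranges overlapped in both genes. In that fit SPRY1 at both times and SPRY3 and SPRED3 at 24 h were past both thresholds. Exons of SPRY3 overlap TMLHE on the opposite strand, so its reads are uncertain.

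In the other MAPK lists, the genes that passed the filter on level and were called at 30 min were all in the list of ERK output genes. Of 7 tested ERK output genes other than the members, 3 were called lower and 0 higher, against 0.544% and 0.0949% of all genes. The list was written with earlier results of these data known, so where the called genes fell is not independent of these data. Its median log2 fold change was -0.51, against -0.36 for the 7 feedback genes and -0.0043 for all genes tested. The called genes were EGR1 (log2 -2.12, SE 0.127, edgeR adjusted p = 7.7e-10), MYC (-1.93, SE 0.0612, edgeR adjusted p = 2.7e-14) and IER3 (-1.50, SE 0.305, edgeR adjusted p = 0.0089). IER3 passed the filter on level only through the control, at 1.53 FPKM against 0.533 FPKM at 30 min, and without the filter its log2 fold change was -1.49 (edgeR adjusted p = 0.0029). FOS was at -0.51 (edgeR adjusted p = 0.085), and ETV4 and ETV5, transcription factors that respond to ERK, were at 0.04 and 0.03. FOSL1 was at -0.07. Whether ERK had a part in these changes was not tested. None of the 19 tested genes of the RAS-ERK cascade was called, nor any of 15 of the p38 and JNK cascade, of 9 encoding ERK5, its activator and MAPK-activated kinases, or of 5 atypical dual-specificity phosphatases. The edgeR counts in these 4 lists stayed at 0 with no limit on fold change, as did those of DESeq2 and limma with the limit. At an unadjusted edgeR p under 0.05, 3 RAS-ERK genes and 1 gene of the ERK5 list were lower, 1 p38 and JNK gene was higher, and 0 atypical phosphatases passed. Their medians were -0.07, 0.04, -0.02 and -0.03.

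At 24 h, against the 14.7% of all genes called higher and 11.6% lower, 1 of 19 RAS-ERK genes was called higher, SOS2, a RAS exchange factor (log2 1.06, SE 0.0987, edgeR adjusted p = 9.6e-09), and 1 lower, PTPN11, a phosphatase that promotes RAS signalling (-0.64, edgeR adjusted p = 1.6e-08), which limma did not call. MAP2K3, a kinase that activates p38, was the 1 of 15 p38 and JNK genes called (-0.69, SE 0.0666, edgeR adjusted p = 1.5e-08). With no limit on fold change, 5 RAS-ERK genes were lower and 5 higher, and 5 p38 and JNK genes were lower and 2 higher. In the ERK5 list 1 was lower and 7 higher, and among the ERK output genes 4 were lower and 1 higher. Of all genes, 32.7% were lower and 30.6% higher at that setting. Among 9 genes of the ERK5 list, MAPK7, which encodes ERK5 itself, rose (log2 1.06, SE 0.113, edgeR adjusted p = 7.0e-08), as did RPS6KA2 (log2 1.29, SE 0.109, edgeR adjusted p = 2.2e-09). The ERK output genes were split: MYC (-2.31, edgeR adjusted p = 3.5e-17), FOSL1 (-1.52, SE 0.110, edgeR adjusted p = 2.1e-10) and ETV4 (-0.76, SE 0.102, edgeR adjusted p = 1.6e-06) were lower and IER3 was higher (1.27, SE 0.226, edgeR adjusted p = 5.2e-05). EGR1 was at -0.34 (edgeR adjusted p = 0.010). Of 5 atypical dual-specificity phosphatases, DUSP22 was called higher (0.67) and DUSP23 lower (-0.67). Medians of the lists lay between -0.34 and 0.29, apart from the 2 relatives at -0.46, with 0.17 for the 8 feedback genes and -0.0056 for all genes tested.

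Between 30 min and 24 h, EGR1 rose (log2 1.78, SE 0.128, edgeR adjusted p = 2.0e-10) and so did IER3 (2.78, SE 0.266, edgeR adjusted p = 1.4e-08), while FOSL1 (-1.45) and ETV4 (-0.80) fell, making 2 higher and 2 lower of 7 ERK output genes, where 15.7% of all genes were called higher and 11.3% lower. IER3 passed the filter on level here only through its 24 h libraries, and its log2 difference without the filter was 2.73 (edgeR adjusted p = 3.8e-11). In the RAS-ERK list SOS2 (1.07) and the adaptor gene GAB2 (0.59, edgeR adjusted p = 2.0e-05) were called higher and PTPN11 (-0.60) lower, whereas DESeq2 called 1 gene of this list higher and 1 lower, and limma 2 higher and 0 lower. The ERK5 list had 4 of 9 called higher, RPS6KA2 (1.41), MAPK7 (1.08), RPS6KA5 (0.84) and MKNK1 (0.63), and 0 lower, with 1 lower at an unadjusted edgeR p under 0.05 and 0 by DESeq2 or limma. MAP2K3 was at -0.69, DUSP23 at -0.76 and DUSP22 at 0.73, all called. The list medians were -0.04, 0.18, 0.20, -0.03 and -0.14 for ERK output, RAS-ERK, ERK5, p38 and JNK, and atypical phosphatases, beside 0.34 for the 8 feedback genes and 0.022 for all genes tested.

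**Figure D4:**
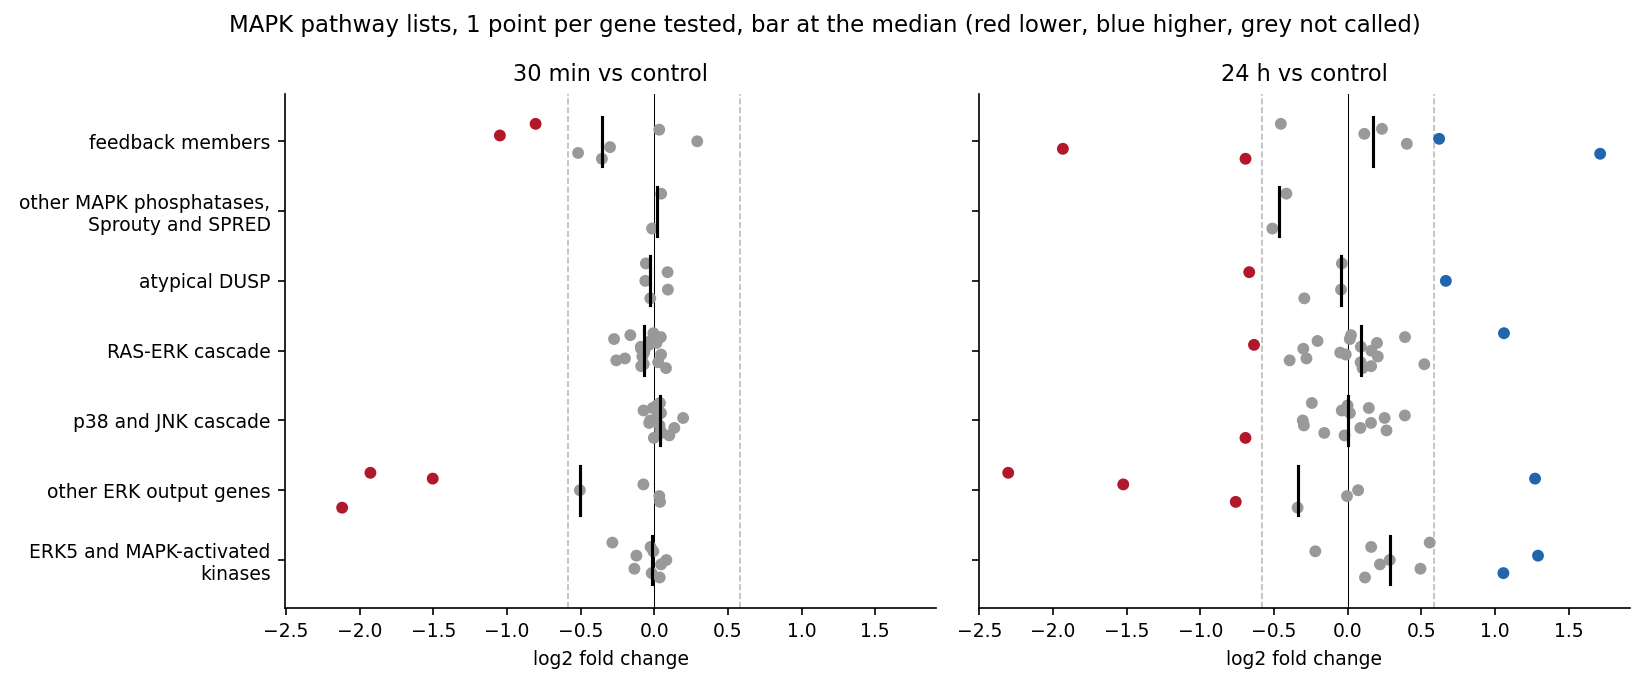
Log2 fold change against control of each gene tested in 7 MAPK lists, with 1 point per gene, a bar at each list's median and dashed lines at a fold change of 1.5. At 30 min the called genes lie in 2 of the lists, the feedback genes and the other ERK output genes, and at 24 h calls lie in all lists but the other MAPK phosphatases, Sprouty and SPRED genes. Of that last list only 2 of 7 genes passed the filter on level and are shown.

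With 3 libraries per group, a two-sided exact permutation test of a single gene gives no p below 0.1. The study describes its replicates in general as independent, but nothing in the labels says that these libraries came from separate cultures, so the p-values measure the spread between these libraries, which may be technical.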

How the data were processed

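RNA-seq libraries of U937 cells (3 control, 3 at 30 min and 3 at 24 h of matrine) were analysed. The 18 HL-60 and K562 samples are not analysed here. Per the paper and the labels, the authors trimmed reads with cutadapt 1.9.1, mapped them with HISAT2 2.0.1 and counted them per gene with HTSeq 0.6.1. The paper names hg38 and the labels GRCh37, and the annotation release and strand setting are not given in the sources used here. The authors deposited raw counts per gene and FPKM values rounded to 2 decimals.

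Of 57905 gene identifiers, symbols came from GENCODE release 44, whose GRCh38 coordinates are printed. Counts were normalized with TMM and tested in 1 fit of the 9 libraries with edgeR 4.0.16 in R 4.3.3, and the procedure was tested on simulated data. A gene entered a test if its FPKM averaged above 1 in the 6 libraries compared. Calls needed a 1.5-fold change and an adjusted p under 0.05. Each SE was obtained by dividing the log2 fold change by the square root of its F statistic. Alternatives used DESeq2 1.42.0, limma 3.58.1 on log2(FPKM + 0.1) and log2(FPKM + 1), other filters, scalings and fold changes, a replicate block, the 6 libraries compared alone, and each library left out.

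The members and lists were chosen with earlier results of these data known. All 10 members are named, and of each pathway list up to 4 called genes per comparison. Other genes named were picked after their values were seen. DUSP14 was not matched and is not used here, and protein sequences were not used.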

Additional observations from a re-analysis of the deposited data

Results flagged for a closer look

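DUSP2, DUSP4, DUSP6 and DUSP10 changed differently at the 2 times, by the test of the difference between 24 h and 30 min of matrine, which equals the difference between the 2 changes against the shared controls. The log2 difference was 1.16 for DUSP6, 1.84 for DUSP10 (1.835 before rounding), 0.70 for DUSP4 and -1.42 for DUSP2 (-1.415 before rounding), with every 24 h library on the same side of every 30 min library in each gene. The causes were not tested, and time in culture cannot be told apart from time in matrine.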

How the results depend on the processing

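DUSP6 and SPRY2 were called lower at 30 min, DUSP2 lower and DUSP10 higher at 24 h, and DUSP6 higher and DUSP2 lower at 24 h against 30 min, under every other scaling, tool and library left out, wherever the gene was tested. Log2 fold changes ranged from -1.06 to -0.97 for DUSP6 and from -0.82 to -0.76 for SPRY2 at 30 min, and from -2.02 to -1.65 for DUSP2 and 1.07 to 1.80 for DUSP10 at 24 h. Of 383 alternative values of single genes, 364 kept direction and call, 9 lost the call, 9 gained it and 1 changed direction, SPRED2 at 30 min, from 0.03 to -0.023 without 30 min replicate 3, with up to 0.095 when others were left out.

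At a fold change of at least 2 the members called lower at 30 min numbered 1, and at 24 h 1 was lower and 1 higher. With no such threshold 4 were higher at 24 h and 6 were higher at 24 h against 30 min. With a mean FPKM above 5, which leaves fewer members tested, 1 was lower and 1 higher at 24 h and 1 higher at 24 h against 30 min. With limma on log2(FPKM + 1) 1 was lower at 24 h, since DUSP1, near 1 FPKM, was at -0.37 with that pseudocount, and 2 were higher at 24 h against 30 min, without DUSP4. With no filter on level SPRY4 was added, making 3 lower at 24 h. Leaving out each library gave 2 to 3 members lower at 30 min, 1 to 2 lower and 1 to 2 higher at 24 h, and 1 lower and 3 higher at 24 h against 30 min. Deviations of same-numbered libraries from their group means correlated between -0.159 and 0.103, and in 6 of 18 pairings of a library with another group the best partner had its own number, so the numbers were not taken to pair the samples. With the replicate block 2 members were lower at 30 min, and no member's call changed. With scaling by library totals the median log2 fold change of all genes was 0.059 at 24 h against control and at most 0.097 in any comparison. Promoter matches in the upstream 250 bases alone were 3 windows for TGACG and 0 for the AP-1 letters. Over all genes, the 63 lower and 11 higher at 30 min became 40 and 7 with a mean FPKM above 5, 74 and 25 with no filter, 52 and 7 with limma on log2(FPKM + 1), 154 and 34 with no fold change threshold, 23 and 1 at a fold change of 2, and 59 to 63 lower with 9 to 18 higher when a library was left out. The 1401 and 1773 at 24 h became 771 and 890, 1900 and 2778, 896 and 1485, 3939 and 3688, and 375 and 751 in the same order of settings, and the 1354 and 1881 of 24 h against 30 min became 732 and 959, 1888 and 2927, 820 and 1591, 3844 and 3981, and 340 and 791. Low counts limit DUSP1, SPRY4 and SPRED1, and also DUSP10 in its control and 30 min libraries.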
